A study of Mus musculus with 6 samples.

Results

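The genes described here are 4 carriers of hexose sugars and 5 enzymes that handle fructose or make glucose, measured in the duodenum of VDR-null and wild-type mice. They were chosen by name, with earlier results of these data known. They are the carriers Slc5a1, Slc2a2, Slc2a5 and Slc2a7, the fructose enzymes Khk and Tkfc, and the glucose-making enzymes G6pc, Fbp1 and Pck1. Each of the 9 had a single probe set that the platform annotation pairs with 1 gene symbol, among 22180 genes named in this way, and all 9 were bright enough to be among the 13174 genes tested. RNA came from 3 VDR-null and 3 wild-type mice, 10 weeks old and of the C57Bl/6 background, with 1 whole-transcript array per mouse. VDR is the vitamin D receptor, and VDR-null mice lack its function. The labels name no targeted allele, sex, diet or feeding state.

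Absorptive cells of the small intestine take up glucose and galactose through SGLT1, the sodium-coupled carrier encoded by Slc5a1, and fructose through GLUT5, encoded by Slc2a5. Both sugars can leave through GLUT2, encoded by Slc2a2, on the side facing the blood. Fructose is phosphorylated by ketohexokinase and split, and the glyceraldehyde formed is phosphorylated by triokinase, the product of Tkfc. The steps that distinguish glucose making from its breakdown are run by phosphoenolpyruvate carboxykinase (Pck1), fructose bisphosphatase (Fbp1) and glucose-6-phosphatase (G6pc), best known from liver and kidney and also present in the small intestine.

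All values are log2 signals, so a step of 1 is a doubling, and a difference is VDR-null minus wild-type. Array medians lay between 5.15 and 5.19. Markers of absorptive cells were bright, with Vil1 between 10.48 and 11.87 and Alpi between 10.86 and 12.85 over the 6 arrays, and the duodenal transcription factor Pdx1 lay between 7.70 and 8.28. Of 10 liver genes, a tissue that shares the glucose-making enzymes, 6 were at or below the median of all values, 5.17, on every array, Alb, Ahsg and Fgb among them, and 3 were above it on all arrays. Of those 3, Ttr, a thyroid hormone carrier protein, read 7.82, 7.86 and 8.22 on VDR-null arrays and 8.40, 8.43 and 8.41 on wild-type arrays, lower in every VDR-null mouse (limma unadjusted p = 0.00917, adjusted p = 0.683). Apoa2 lay between 5.71 and 6.38. Of 7 kidney tubule genes, 6 were at or below the median on every array, Umod and Slc34a1 among them, and Aqp2 lay between 5.69 and 6.25. Transcripts of pancreatic acinar cells stood out on VDR-null replicate 3, where Cpa1 read 10.11 against 6.78 and 5.91 on the other VDR-null arrays and 5.87, 5.55 and 5.78 on the wild-type arrays. Vdr read 10.99, 10.86 and 10.85 on VDR-null arrays and 10.72, 10.95 and 11.11 on wild-type arrays. Its means differed by -0.03 ± 0.12 (SE). Because the labels do not say which exons were deleted, and the probe positions were not used here, Vdr signal is no test of genotype, and the genotypes stand as labelled.

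All 9 genes had a higher mean in VDR-null than in wild-type duodenum, by 0.46 to 1.84 on the log2 scale, and none passed the test for a genotype difference. The median difference was 1.01 over the 9 genes, against -0.03 over all genes tested, of which 44.0% had a mean above 0. With limma, which moderates each gene's spread by that of all genes, 0 of 9 passed a Benjamini-Hochberg adjusted p of 0.05, and 0% of all genes did. At an unadjusted p under 0.05, Tkfc and G6pc were higher, 2 of 9, where 5.23% of all genes passed that level, 2.20% higher and 3.03% lower in VDR-null duodenum. Neither kept that level without wild-type replicate 1 (limma unadjusted p = 0.117 for Tkfc and 0.0718 for G6pc), nor without VDR-null replicate 1 (0.134 and 0.107) or VDR-null replicate 2 (0.0885 and 0.113). By their means 8 genes were at least 1.5-fold higher, all but Fbp1, against 2.61% of all genes. The arrays of the genotypes overlapped in each of the 9, whereas 11.1% of all genes had arrays that did not overlap, 4.87% with the VDR-null arrays higher.

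The order of the arrays was nearly the same in every gene. Wild-type replicate 1 was the lowest of the 6 arrays in 9 of 9 genes, which is so in 19.6% of all genes tested. VDR-null replicate 1 was the highest in 7 of 9, and VDR-null replicate 2 in Fbp1 and Pck1. Of all genes tested, 13.5% had wild-type replicate 1 lowest and VDR-null replicate 1 highest. VDR-null replicate 3 was the lowest VDR-null array in 9 of 9 and lay below wild-type replicate 2 in each of them. The share of all genes with that position of VDR-null replicate 3 was not computed, so the count is not shown to be particular to the 9. The mean of the brush border list described below had it too (10.36 against 10.56 on wild-type replicate 2).

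**Figure D1:**
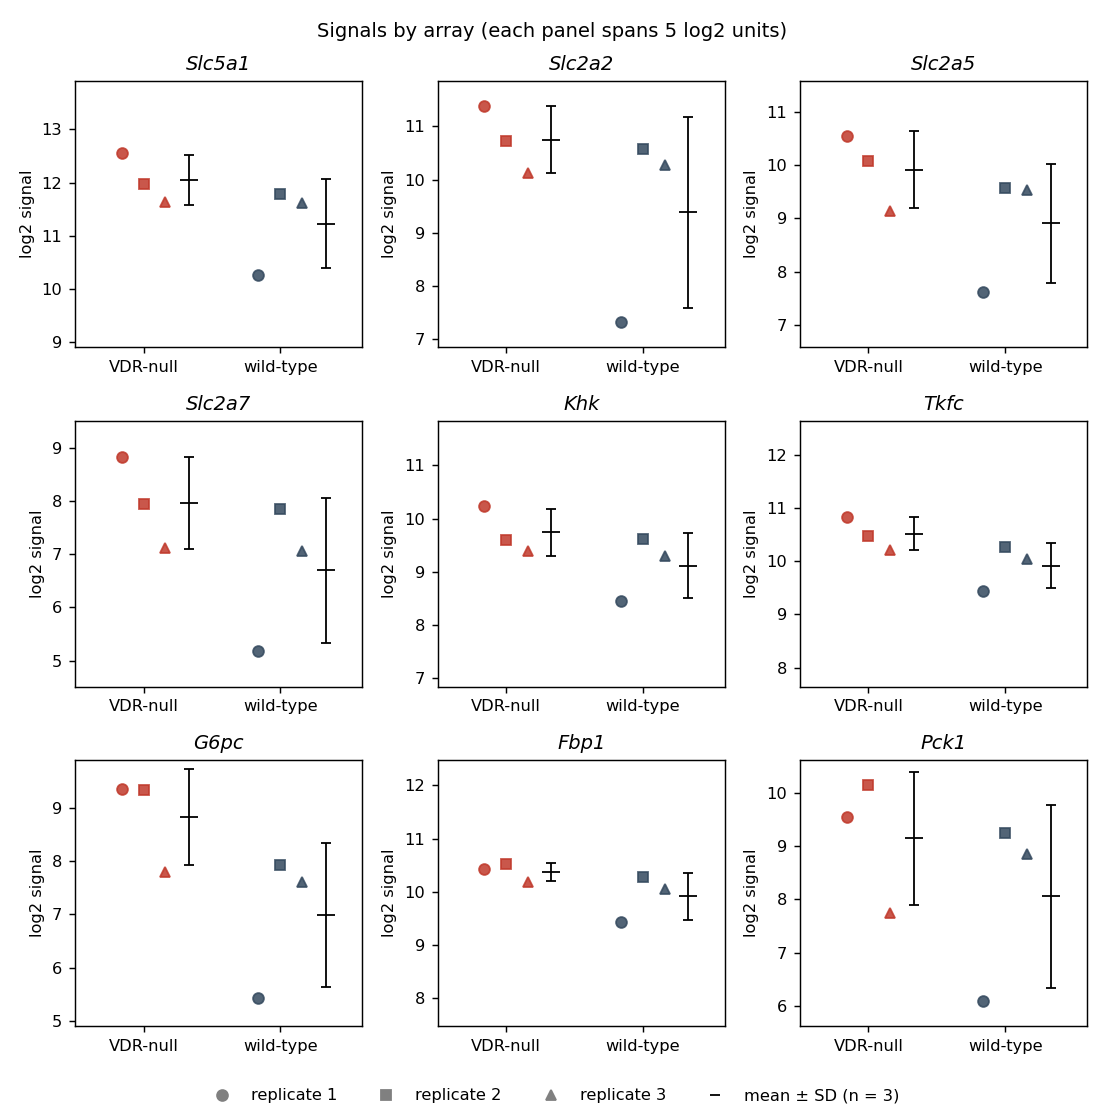
Log2 signal (vertical axes, each spanning the same number of log2 units) of the 9 genes on the VDR-null arrays (red, left) and the wild-type arrays (dark blue, right), with the mean and SD of each group (n = 3). Wild-type replicate 1 is the lowest point in every panel, and VDR-null replicate 3 lies below wild-type replicate 2 in every panel.

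Among the carriers, Slc5a1, which brings glucose and galactose into the cell with sodium, read 12.55, 11.98 and 11.63 on VDR-null arrays and 10.27, 11.79 and 11.63 on wild-type arrays. VDR-null replicates 1 and 2 were above every wild-type array, and VDR-null replicate 3 lay between wild-type replicates 3 and 2. Its means were 12.06 ± 0.47 (SD, n = 3) in VDR-null and 11.23 ± 0.84 (n = 3) in wild-type duodenum. The difference of 0.83 ± 0.43 (SE; 95% confidence interval -0.19 to 1.85), or 1.77-fold, had a limma adjusted p of 0.683. Without wild-type replicate 1 it was 0.35, and without both arrays numbered 1 it was 0.10 ± 0.16. Leaving out both keeps 2 arrays per genotype. It removes the lowest wild-type array of each of the 9 genes and the highest VDR-null array of 7. A smaller difference, here and below, therefore follows from which arrays were left out.

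Slc2a2, the carrier through which glucose, galactose and fructose leave the cell, read 11.39, 10.73 and 10.13 on VDR-null arrays and 7.32, 10.57 and 10.27 on wild-type arrays. Wild-type replicate 1 minus the mean of the other wild-type arrays was -3.10, and 0.061% of all tested genes had a lower value. The other 5 arrays overlapped between the genotypes. The means were 10.75 ± 0.63 (SD, n = 3) in VDR-null and 9.39 ± 1.80 (n = 3) in wild-type duodenum, a difference of 1.36 ± 0.84 (SE; limma adjusted p = 0.683). It was 0.33 without wild-type replicate 1 and 0.01 ± 0.23 without both arrays numbered 1. The 300 bases around its start (chr3:28697653-28697952, plus strand, RefSeq on GRCm38.p6, 250 before and 50 after the start) are shown because this gene had the deepest gap on wild-type replicate 1. Capitals mark AGGTCA, the core recognised by many nuclear receptors, 21 bases before the start.
Slc2a2: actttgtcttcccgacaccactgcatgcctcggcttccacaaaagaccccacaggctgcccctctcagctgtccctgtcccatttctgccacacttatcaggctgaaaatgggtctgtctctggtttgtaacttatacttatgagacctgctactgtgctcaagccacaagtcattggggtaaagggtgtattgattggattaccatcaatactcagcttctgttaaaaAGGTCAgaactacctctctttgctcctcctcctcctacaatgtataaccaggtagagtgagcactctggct

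Slc2a5, the fructose carrier of the apical membrane, read 10.55, 10.08 and 9.13 on VDR-null arrays and 7.62, 9.57 and 9.53 on wild-type arrays. VDR-null replicates 1 and 2 were above all wild-type arrays, and VDR-null replicate 3 was below wild-type replicates 2 and 3. The difference was 1.01 ± 0.59 (SE), or 2.01-fold (limma adjusted p = 0.683), and 0.05 ± 0.31 without both arrays numbered 1. Slc2a7, a close relative of Slc2a5 found in the intestine, read 8.83, 7.94 and 7.11 on VDR-null arrays and 5.19, 7.84 and 7.06 on wild-type arrays. Its value on wild-type replicate 1 was just above the median of all values, 5.17. The difference was 1.26 ± 0.72 (SE; limma adjusted p = 0.683), and 0.07 ± 0.37 without both arrays numbered 1.

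Slc2a5 and Slc2a7 are neighbours on chromosome 4 on the same strand, with 0 annotated genes between them in RefSeq. The coding gene before the pair, Gpr157, did not share their profile: it read 6.06, 6.04 and 6.23 on VDR-null arrays and 6.08, 5.98 and 6.05 on wild-type arrays. The centred profiles of Slc2a5 and Slc2a7, each array minus the gene's mean, differed by 0.30 (root mean square over 6 arrays). That of Slc2a5 and Slc5a1, on another chromosome, differed by 0.26. Where both carriers deviated most, on wild-type replicate 1, Slc2a7 and Slc2a5 lay at -2.26 and -1.93 relative to the mean of the other wild-type arrays.

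Of the fructose enzymes, Khk, which phosphorylates fructose in its first step, read 10.24, 9.60 and 9.39 on VDR-null arrays and 8.45, 9.61 and 9.30 on wild-type arrays. Only VDR-null replicate 1 was above all wild-type arrays. The difference was 0.62 ± 0.34 (SE), or 1.54-fold (limma adjusted p = 0.683), and 0.04 ± 0.15 without both arrays numbered 1. Khk spanned 1.80 log2 units over the 6 arrays, less than G6pc (3.93) and Pck1 (4.05) but more than Fbp1 (1.10) and the median gene (0.43). Its promoter window (chr5:30921309-30921608, plus strand) is shown to set beside those of G6pc and Pck1 below. Capitals mark the E-box CACGTG 71 bases before the start, TGACG on the opposite strand, which overlaps it, and GTTAAT 60 bases before the start.
Khk: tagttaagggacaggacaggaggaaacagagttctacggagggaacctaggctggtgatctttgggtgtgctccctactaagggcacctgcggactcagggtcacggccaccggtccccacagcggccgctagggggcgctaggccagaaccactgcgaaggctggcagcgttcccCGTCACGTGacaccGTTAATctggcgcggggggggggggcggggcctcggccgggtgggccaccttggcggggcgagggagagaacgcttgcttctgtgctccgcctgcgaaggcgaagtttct

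Tkfc, whose product phosphorylates the glyceraldehyde from fructose, read 10.83, 10.48 and 10.22 on VDR-null arrays and 9.45, 10.26 and 10.05 on wild-type arrays. VDR-null replicates 1 and 2 were above every wild-type array, and replicate 3 lay between wild-type replicates 2 and 3. The difference was 0.59 ± 0.24 (SE; 95% confidence interval 0.02 to 1.17; limma unadjusted p = 0.0448, adjusted p = 0.683). Without both arrays numbered 1 it was 0.20 ± 0.14.

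The glucose-making enzymes held the largest and the smallest of the 9 differences. G6pc, the catalytic subunit of the enzyme that releases free glucose, read 9.36, 9.34 and 7.79 on VDR-null arrays and 5.44, 7.92 and 7.60 on wild-type arrays. VDR-null replicates 1 and 2 stood above all other arrays, and replicate 3 lay between wild-type replicates 2 and 3. The means were 8.83 ± 0.90 (SD, n = 3) in VDR-null and 6.99 ± 1.35 (n = 3) in wild-type duodenum, a difference of 1.84 ± 0.72 (SE; 95% confidence interval 0.13 to 3.55), or 3.59-fold, with a limma unadjusted p of 0.0382 and an adjusted p of 0.683. Leaving out wild-type replicate 1 gave 1.07, leaving out VDR-null replicate 1 gave 1.58, and leaving out both gave 0.80 ± 0.50. Leaving out VDR-null replicate 3 gave 2.36. The promoter window of G6pc (chr11:101367466-101367765, plus strand) is shown for the gene with the largest difference. Capitals mark GTTAAT, the core of the HNF1 motif, 221 bases before the start, AGGTCA on the opposite strand 54 bases before it, and the TATA box TATAAA 29 bases before it.
G6pc: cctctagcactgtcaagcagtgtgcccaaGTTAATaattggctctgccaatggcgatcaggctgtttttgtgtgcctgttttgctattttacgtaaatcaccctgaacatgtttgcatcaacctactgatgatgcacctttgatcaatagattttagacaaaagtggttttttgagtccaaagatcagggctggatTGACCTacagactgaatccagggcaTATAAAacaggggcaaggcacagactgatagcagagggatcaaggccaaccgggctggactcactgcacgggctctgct

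Pck1, which opens the route from oxaloacetate to glucose, varied most among the VDR-null mice. It read 9.56, 10.15 and 7.74 on VDR-null arrays and 6.09, 9.25 and 8.85 on wild-type arrays. VDR-null replicates 1 and 2 were above all wild-type arrays, and VDR-null replicate 3 was more than 1 unit below wild-type replicates 2 and 3. The VDR-null arrays spanned 2.40 log2 units, where the median gene spanned 0.28. The difference was 1.09 ± 0.94 (SE; limma adjusted p = 0.714). Omitting wild-type replicate 1 gave 0.10, omitting VDR-null replicate 3 gave 1.79, and omitting both arrays numbered 1 gave -0.11 ± 0.77. Its promoter window (chr2:173152823-173153122, plus strand) is shown beside that of G6pc. Capitals mark, all on the opposite strand, GTTAAT 192, the GATA motif AGATAA 169 and the CRE core TGACG 90 bases before the start.
Pck1: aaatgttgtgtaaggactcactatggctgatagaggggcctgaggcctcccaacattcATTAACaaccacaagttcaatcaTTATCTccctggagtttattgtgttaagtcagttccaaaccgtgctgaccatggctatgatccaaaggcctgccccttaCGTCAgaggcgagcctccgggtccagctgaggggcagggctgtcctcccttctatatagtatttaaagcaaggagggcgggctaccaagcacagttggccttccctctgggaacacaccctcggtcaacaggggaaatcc

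Fbp1, which removes a phosphate from fructose 1,6-bisphosphate, was the steadiest of the 9. It read 10.42, 10.53 and 10.19 on VDR-null arrays and 9.43, 10.28 and 10.05 on wild-type arrays. VDR-null replicates 1 and 2 lay above the wild-type arrays and replicate 3 between wild-type replicates 2 and 3. The difference was 0.46 ± 0.22 (SE), or 1.38-fold (limma adjusted p = 0.683), and 0.20 ± 0.16 without both arrays numbered 1.

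**Figure D2:**
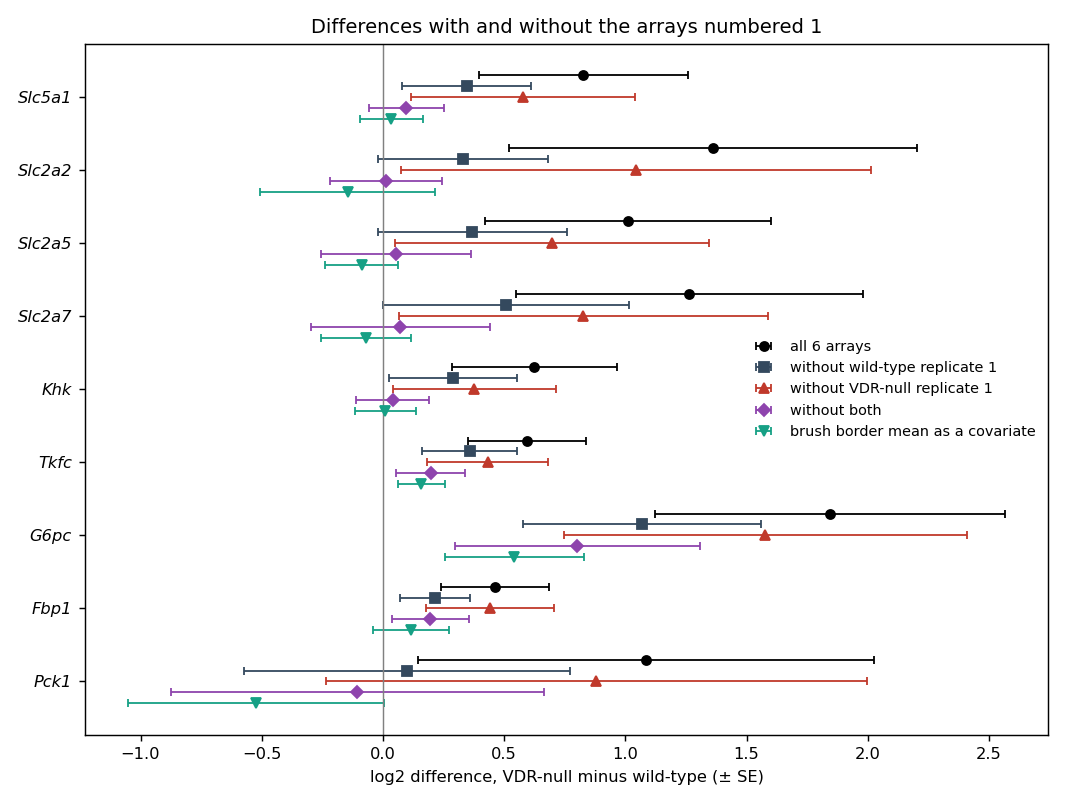
Log2 difference, VDR-null minus wild-type (horizontal axis, with SE bars), of each gene under the settings named in the legend: all 6 arrays, either or both of the arrays numbered 1 left out, and the brush border mean as a term in the fit. The median over the genes was 1.01 with all arrays and 0.07 without both arrays numbered 1, where G6pc kept the largest value, 0.80. Wild-type replicate 1 was the lowest array in each gene, so leaving it out had to lower the differences.

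The promoter windows of all 9 genes were searched for the same letters on both strands, in 32851 windows of 300 bases. AGGTCA was present in Slc2a2 and G6pc and in 16.3% of all windows. GTTAAT was in Pck1, Khk and G6pc (7.1% of all), TGACG in Pck1 and Khk (20.8%), AGATAA in Pck1 and Fbp1 (11.2%), TATAAA in G6pc (13.6%) and CACGTG in Khk and Slc5a1 (7.15%). The windows of Slc2a5, Slc2a7 and Tkfc held none of these letters. The spaced repeats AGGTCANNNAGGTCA, the type to which the vitamin D receptor binds with RXR, and AGGTCANAGGTCA were in 0 of the 9 windows, and in 2 and 13 of all windows.

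The 9 genes differed in how far their signal ranged across the mice. Slc2a2, Pck1, G6pc and Slc2a7 spanned 4.06, 4.05, 3.93 and 3.65 log2 units over the 6 arrays, and 0.197% to 0.311% of all tested genes spanned more. Slc2a5 spanned 2.92 and Slc5a1 2.29 units. Khk, Tkfc and Fbp1 spanned 1.80, 1.39 and 1.10 units, with 2.21%, 4.04% and 6.42% of genes wider. The median gene spanned 0.43.

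The same order of arrays was seen in a list of brush border and other epithelial genes, called the brush border list here. Beside Vil1 and Alpi it holds, for example, Epcam, Cdh17, Krt20, Fabp1 and Fabp2. The mean of 19 such genes, none of them among the 9, was 11.15, 10.76 and 10.36 on VDR-null arrays and 9.65, 10.56 and 10.45 on wild-type arrays, and 18 of the 19 had a higher mean in VDR-null duodenum (median difference 0.55). An unadjusted p of 0.05 was passed by 2 of them and an adjusted one by 0. Alpi, the intestinal alkaline phosphatase, differed by 0.56 ± 0.48 (SE) and Anpep, an aminopeptidase, by 0.66 ± 0.18. Cell division genes ran the other way, with 15 of 15 lower in VDR-null duodenum (median -0.26), 2 of them at an unadjusted p under 0.05, among the list Mki67 at -0.42 ± 0.17 and Pcna at -0.17 ± 0.18. Smooth muscle genes were lower in 10 of 10 (median -0.33), 5 of them at an unadjusted p under 0.05, with Acta2 at -0.33 ± 0.13 and Myl9 at -0.33 ± 0.13. Their mean was 9.69, 9.70 and 9.67 on VDR-null arrays and 10.16, 9.71 and 10.26 on wild-type arrays. Wild-type replicate 2 was thus level with the VDR-null arrays. The part of these cell types in the results was not tested beyond the values that follow. In RNA of a whole tissue piece, fewer cells of a type and less RNA per cell cannot be told apart.

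**Figure D3:**
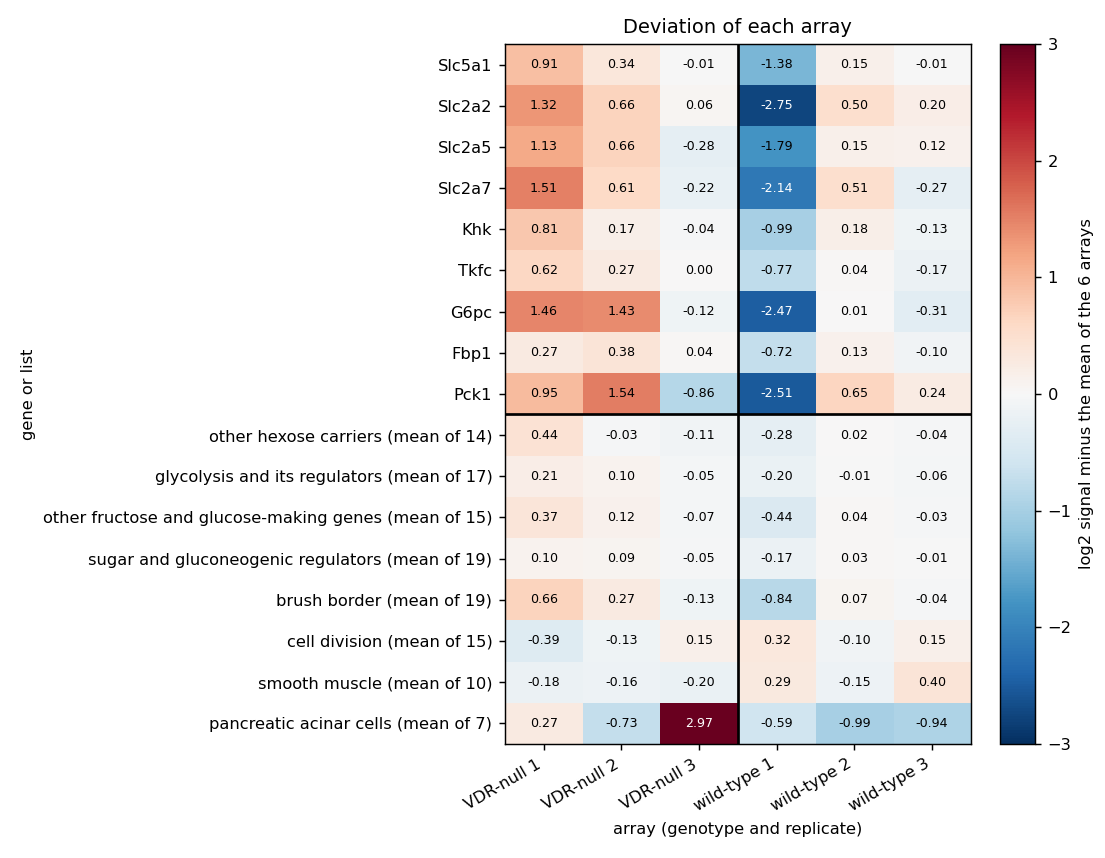
Log2 signal minus the mean of the 6 arrays for each of the 9 genes (above the line) and the mean over each list (below it), by array, VDR-null arrays to the left of the line and wild-type to its right. Wild-type replicate 1 is at -0.72 or lower in each gene and at -0.84 in the brush border mean, and pancreatic transcripts reach 2.97 on VDR-null replicate 3.

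Set against the brush border mean of the same array, 8 of 9 genes had a higher mean in VDR-null duodenum, with a median difference of 0.48. The share of all genes higher on this scale was not computed. The brush border mean was itself higher in VDR-null duodenum, so the scale lowers the difference of every gene by the same amount. Before subtraction 44.0% of all tested genes had a difference above 0, with a median of -0.03, and both can only be lower on this scale. Subtraction takes the same amount from each gene, so genes that ranged wider than the brush border list keep part of that range. On wild-type replicate 1 the 9 genes averaged -1.72 from their own means over the arrays, and the brush border list -0.84. In a limma fit where each gene had its own slope on the brush border mean, the median difference was 0.01. That mean differed between the genotypes and had nearly the array profile of the 9 genes. Such a fit therefore cannot tell a genotype difference from one shared with the list. On the subtracted scale Khk and Tkfc were nearly level over the mice. Khk lay at -0.91, -1.15 and -0.97 relative to the brush border mean on VDR-null arrays and at -1.20, -0.95 and -1.15 on wild-type arrays. The values relative to the mean spanned 0.30 in Khk and 0.26 in Tkfc, with differences between the genotypes of 0.09 and 0.06. Fbp1 differed by -0.07, and its VDR-null arrays, at -0.73, -0.23 and -0.17, had a larger SD on this scale (0.31) than on the signal itself (0.17). The carriers Slc5a1, Slc2a2, Slc2a5 and Slc2a7 differed by 0.29, 0.83, 0.48 and 0.73, and the enzymes G6pc and Pck1 by 1.31 and 0.55. Slc5a1 was 1.41, 1.23 and 1.27 above the mean on VDR-null arrays and 0.62, 1.23 and 1.18 above it on wild-type arrays, so that only wild-type replicate 1 stood apart.

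G6pc was the only one of the 9 whose genotypes no longer overlapped on this relative scale. It lay at -1.78, -1.42 and -2.57 on VDR-null arrays and at -4.21, -2.64 and -2.85 on wild-type arrays. Replicate 3 of the VDR-null mice and replicate 2 of the wild-type mice came closest, nearer to each other than the SD of either group (0.59 in VDR-null and 0.85 in wild-type). Of all tested genes, 0.167% had every VDR-null array above every wild-type array on this scale, and 5.31% had every one below. The brush border mean was itself higher in VDR-null duodenum, so subtracting it lowers every gene's VDR-null mean against wild-type. The share of 0.167% therefore depends on the scale and does not measure how rare the G6pc pattern is. On the signal itself 4.87% of genes had every VDR-null array above. Pck1, at -1.59, -0.61 and -2.62 on VDR-null arrays and -3.56, -1.31 and -1.60 on wild-type arrays, overlapped throughout. Slc2a2 lay at 0.24, -0.02 and -0.22 on VDR-null arrays and at -2.33, 0.01 and -0.18 on wild-type arrays, where wild-type replicate 1 alone stood apart. When that mean entered the limma fit as a covariate, G6pc differed by 0.54 ± 0.29 (SE) and Tkfc by 0.16 ± 0.10, and Slc2a2, Slc2a5, Slc2a7 and Pck1 by -0.15, -0.09, -0.07 and -0.52, with an adjusted p of 1 in each.

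**Figure D4:**
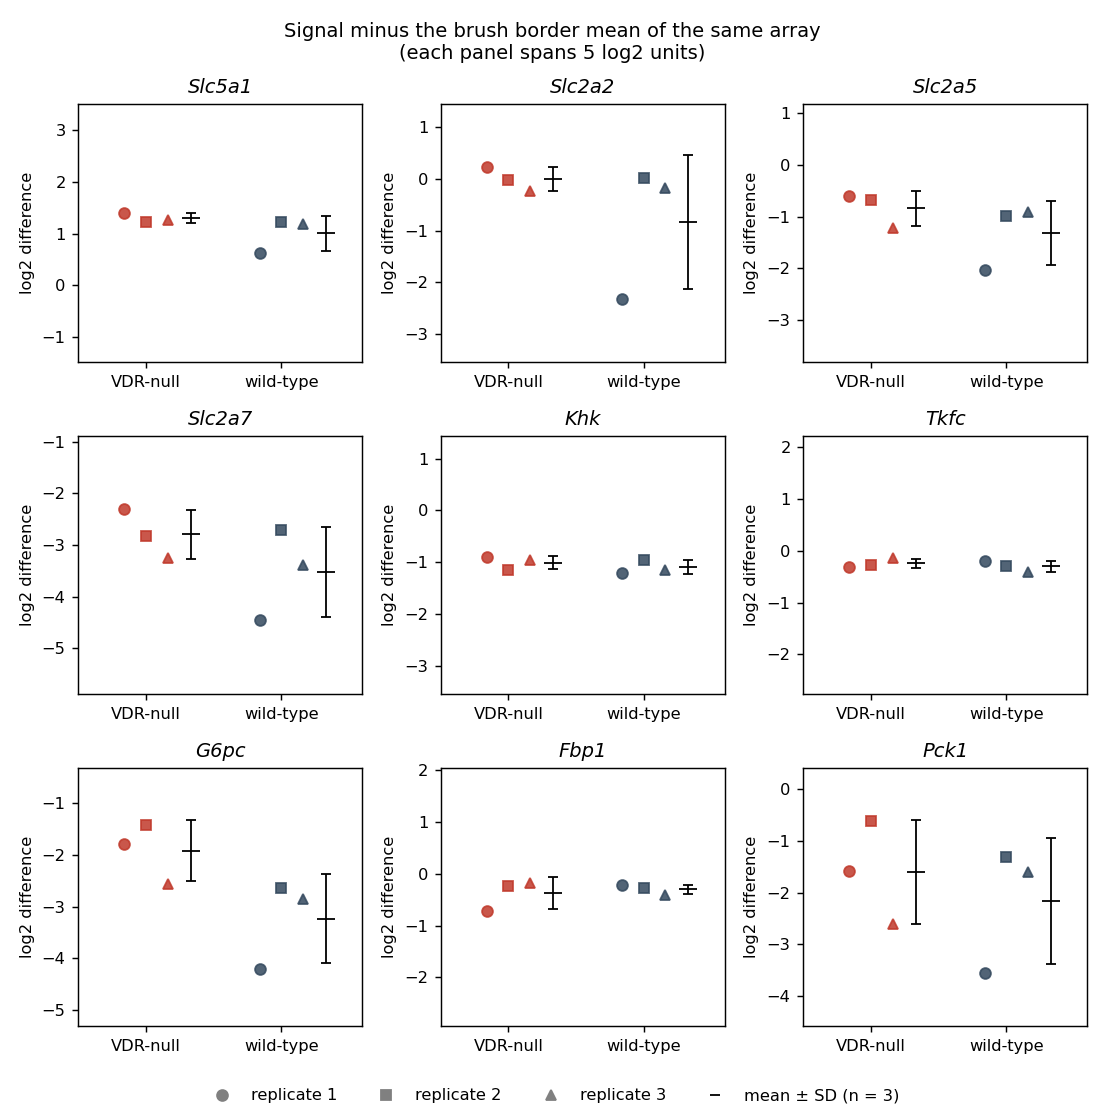
Log2 signal minus the mean of 19 brush border genes on the same array (vertical axes, equal spans) for the VDR-null (red, left) and wild-type arrays (dark blue, right), with mean and SD (n = 3). Khk and Tkfc are nearly level over all arrays, and G6pc has its 3 VDR-null values above its 3 wild-type values.

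Other carriers of the same families gave no shared direction. Of 12 tested, the VDR-null mean was higher in 5 and lower in 7, with a median of -0.05, and 0 passed an adjusted p of 0.05 in limma. Slc5a11, a sodium-coupled carrier known for inositol, read 9.13, 7.98 and 7.73 on VDR-null arrays and 5.99, 7.91 and 7.17 on wild-type arrays, the same order as in Slc5a1, and differed by 1.26 ± 0.54 (SE). Slc2a9, a urate carrier, differed by 0.56 ± 0.25. The widely used glucose carrier Slc2a1, with 8.52, 8.63 and 8.78 on VDR-null arrays and 8.67, 8.64 and 8.47 on wild-type arrays, differed by 0.05 ± 0.11, and Slc2a8, an intracellular carrier, by -0.05 ± 0.09. Slc2a4, the insulin-responsive carrier of muscle and fat, read 6.57, 6.47 and 6.54 on VDR-null arrays and 7.07, 6.64 and 7.26 on wild-type arrays. It had its VDR-null arrays all lower (-0.46 ± 0.16; limma unadjusted p = 0.0236, adjusted p = 0.683).

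In glycolysis and its regulators 14 of 16 tested genes had a higher mean in VDR-null duodenum (median 0.20), 1 at an unadjusted p under 0.05 and 0 at an adjusted one. That gene, Pfkfb3, which makes the activator of phosphofructokinase, read 7.42, 7.17 and 6.74 on VDR-null arrays and 6.37, 6.74 and 6.73 on wild-type arrays (0.49 ± 0.19, SE). Pgam1, a mutase, differed by 0.19 ± 0.08 and Ldha, lactate dehydrogenase, by 0.16 ± 0.08, both without overlap. Of the brightest enzymes, Gapdh differed by 0.21 ± 0.13 and Tpi1 by 0.23 ± 0.13, both with overlap, and Pgk1 by 0.07 ± 0.08. Pgk1 and Pfkfb3 also had no overlap, Pfkfb3 by a narrow margin (6.7401 against 6.7396). Of the 16 tested genes of this list, 5 had no overlap, 4 of them with the VDR-null arrays higher. The shares over all genes were 11.1% and 4.87%.

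Among the other fructose and glucose-making genes 10 of 14 were higher (median 0.30), 1 at an unadjusted p under 0.05. Glyctk, the glycerate kinase that takes a side route of fructose carbon, read 6.98, 6.02 and 6.02 on VDR-null arrays and 5.60, 5.41 and 5.97 on wild-type arrays. Its groups did not overlap, and it differed by 0.68 ± 0.28 (SE). Slc37a4, the carrier that brings glucose-6-phosphate to G6pc, differed by 0.48 ± 0.23, with 9.82, 9.65 and 9.29 on VDR-null arrays and 8.65, 9.39 and 9.30 on wild-type arrays. Gpd1, glycerol-3-phosphate dehydrogenase, differed by 0.65 ± 0.33, Got1, a cytosolic transaminase, by 0.52 ± 0.26, and Mdh2, mitochondrial malate dehydrogenase, by 0.24 ± 0.16.

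Regulators of sugar and glucose-making genes were close to level. Of 18 tested, 10 were higher and 8 lower (median 0.06), with 1 at an unadjusted p under 0.05. Mlxipl, which encodes the sugar-sensing factor ChREBP, read 10.42, 10.41 and 10.43 on VDR-null arrays and 10.31, 10.42 and 10.55 on wild-type arrays, a difference of -0.0045 ± 0.09 (SE). Its partner Mlx differed by 0.32 ± 0.13 without overlap between the genotypes. Txnip, a known ChREBP target, differed by -0.09 ± 0.15 and Hnf4a, a nuclear receptor of the gut epithelium, by -0.03 ± 0.10. Creb3l3, a membrane-bound factor of liver and intestine, read 10.54, 10.00 and 9.49 on VDR-null arrays and 8.07, 9.68 and 9.71 on wild-type arrays (0.86 ± 0.48), and Rab11a, of the recycling compartment, differed by 0.20 ± 0.12.

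**Figure D5:**
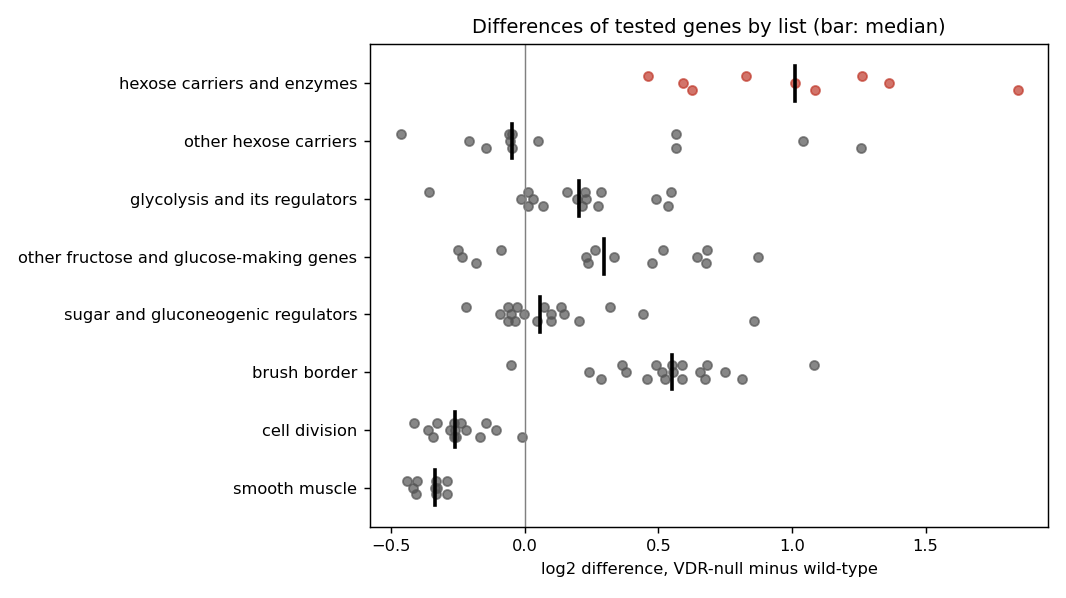
Log2 difference, VDR-null minus wild-type (horizontal axis), of every tested gene of each list (points) with the list's median (bar). The 9 hexose carriers and enzymes lie between 0.46 and 1.84, and the cell division and smooth muscle genes lie below 0.

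Genes outside the 9 whose centred profile was closest to the mean profile of the 9 were Clec2h, a lectin-like gene, Slc13a1, a sodium-sulfate cotransporter, Mogat2, which rebuilds triglyceride from absorbed fat, Sult1b1, a sulfotransferase, and 2010003K11Rik. Their root mean square deviations over the 6 arrays were 0.09, 0.09, 0.09, 0.10 and 0.13 log2 units. Mogat2, for example, read 10.14, 9.90 and 9.01 on VDR-null arrays and 7.24, 9.51 and 9.05 on wild-type arrays. For single genes the closest profiles were Slc25a45 for Slc5a1 (0.05), Naip5 for Tkfc (0.04) and Slc39a14 for Fbp1 (0.05). G6pc and Pck1 had the least close neighbours, Spink1 at 0.27 and Cyp3a25 at 0.31. The arrays share their mice and normalization, and closeness of profile is given as a description.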

How the data were processed

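Duodenal RNA was hybridised to Affymetrix Mouse Gene 2.0 ST arrays. The authors deposited a log2 signal for every probe set on each array, which the submitters' processing notes attribute to RMA and Affymetrix Expression Console. RMA corrects background, equalises distributions between arrays and summarises probes, so a shift shared by most genes would be removed. Values ran from 1.99 to 13.8, a range typical of RMA's log2 scale.

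The platform annotation gave a single symbol to 23521 of 41345 probe sets, several to 1814 and none to 16010. Each gene was represented by its brightest probe set. Genes above the overall median, 5.17, on 3 or more of the 6 arrays entered the test. The main comparison was a two-sided limma 3.58.1 model of genotype alone, with moderated variances (R 4.3.3), and its p-values were adjusted by Benjamini-Hochberg across the 13174 genes. Precision is set by the number of arrays and by the spread between mice, with SEs from 0.22 (Fbp1) to 0.94 (Pck1) among the 9 genes. The 9 genes, the lists and the rule for named genes (the 3 brightest and the 3 with the smallest p of each of the first lists, and the closest profiles) were chosen with earlier results of these data known. The design text describes the replicates as separate mice. Promoter letters were searched in the RefSeq windows of GRCm38.p6. The planned comparison of protein sequences was not run.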

Additional observations from a re-analysis of the deposited data

How the results depend on the processing

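In the refits run, none of the 9 genes passed an adjusted p of 0.05 (lowest 0.191, G6pc with array weights; highest 1). Directions held in every refit except those named here. Without both arrays numbered 1 Pck1 turned to -0.11, the median difference of the 9 genes moved to 0.0717 and the count of genes at an unadjusted p under 0.05 was 372. That refit drops the lowest wild-type array of each of the 9 genes, so its smaller differences follow from the arrays left out. With that mean of brush border genes in the fit Slc2a2, Slc2a5, Slc2a7 and Pck1 turned to -0.15, -0.0877, -0.0702 and -0.52, the median was 0.0105 and the count 459. Both Tkfc and G6pc missed an unadjusted p of 0.05 without both arrays numbered 1 (0.227 and 0.172), with the brush border term (0.149 and 0.105) and with the replicate block (0.089 and 0.0552). Tkfc also missed it without wild-type replicate 3 (0.0652), after a second quantile normalization (0.055), after cyclic loess (0.0515) and over all probe sets (0.0503). Leaving out single arrays, the median ranged from 0.35 (without wild-type replicate 1) to 1.40 (without VDR-null replicate 3), Pck1 from 0.10 to 1.79 and G6pc from 1.07 to 2.36. The count at an unadjusted p under 0.05, 689 with all arrays, ranged from 284 (without wild-type replicate 1) to 1569 (without VDR-null replicate 3). It was 1278 with no filter on dim genes, 2718 with array weights and 1089 over all probe sets. The cause was not tested, except that the wider filters test more genes. By exact permutation of single genes p was 0.2 to 0.5, two-sided, where 3 against 3 cannot go below 0.1. The replicate numbers do not pair the mice in the labels, and same-numbered arrays deviated from their group means with r of -0.62, 0.19 and -0.26. With the replicate block the count was 338, the differences were the same and the adjusted p of each of the 9 genes was 0.831. The background near the median limits Slc2a7 and G6pc on wild-type replicate 1.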

Other observations

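The sodium-coupled carriers Slc5a4a and Slc5a9 were left out by the rule for named genes and are named here after their values were seen. Slc5a9 had the array order of Slc5a1, and Slc5a4a had it in part. Slc5a4a read 8.31, 6.95 and 5.96 on VDR-null arrays and 4.85, 6.62 and 6.62 on wild-type arrays, so that VDR-null replicate 3 lay below wild-type replicates 2 and 3. Slc5a9 read 7.31, 6.35 and 6.14 on VDR-null arrays and 5.82, 6.30 and 5.98 on wild-type arrays. Their differences of 1.04 ± 0.69 and 0.57 ± 0.31 (SE) had limma adjusted p-values of 0.683 each.

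Pcx, the pyruvate carboxylase that feeds glucose making, and Ppargc1a, a coactivator of glucose-making genes, were also named after their values were seen. Pcx read 8.73, 7.53 and 6.95 on VDR-null arrays and 6.55, 7.55 and 7.07 on wild-type arrays, and Ppargc1a differed by 0.44 ± 0.31 (SE). In both, wild-type replicate 1 was the lowest array and VDR-null replicate 3 lay below wild-type replicates 2 and 3. Pck2, the mitochondrial form of Pck1, had the opposite order at the ends, with 7.55, 7.65 and 7.88 on VDR-null arrays and 8.10, 7.81 and 7.88 on wild-type arrays.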
